A study of Mus musculus with 4 samples.

Results

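Shared probe sets are those of a mouse expression array to which the platform's probe-to-gene table assigns several gene symbols, so that 1 number stands for more than 1 gene. They were found by that rule alone, with no expression value used: 1814 of 41345 probe sets had several symbols, 23521 had 1 and 16010 had none listed. The 1814 carried 2726 different symbols. Of them, 1140 had 2 symbols, 241 had 3 and 130 had 10 or more, up to 20 on 1 probe set. Probe sets with the same deposited value on every array were counted once, as 1 reading, which left 1622 shared readings among 40543 in the table. In 112 of the shared readings, over 1 probe set gave the same 4 values. The most repeated was that of the Snord116l copies, 16 probe sets with 1 set of values, followed by Mir669a with 12.

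The study measured total RNA from 4 cultures of Black6-129X1/SvJ cells, labelled as pooled male and female, with 1 array each. Both day 6 cultures were reprogrammable mouse embryonic fibroblasts (repMEFs), which turn on reprogramming factors when given doxycycline, sampled as bulk cultures at day 6. One carried a Firefly knockdown, a control since mouse cells lack that luciferase gene, and the other a knockdown of Sumo2, a small protein that cells attach to other proteins. The other arrays hold stable clones of induced pluripotent stem cells (iPSC) derived after Sumo2 knockdown, labelled 38 h and 10 day, a time whose meaning no label gives. The treatment label of all 4 samples is ascorbic acid and doxycycline, in stem cell medium with serum. Neither iPSC array has a partner without the knockdown, and how many clones an array holds is not stated; each is called a line here. In bulk RNA, fewer cells of a type and less RNA per cell cannot be told apart.

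Genes come to share a probe set in several ways. Tandem duplication leaves arrays of near-identical copies, as in the Zscan4, Prame and Xlr families, whose RNA an array probe cannot assign to 1 copy. Processed copies of busy housekeeping genes, such as ribosomal proteins and Gapdh, are scattered over other chromosomes. Other genes overlap or are nested, such as a microRNA inside a host transcript. In reprogramming the first kind matters because several young, multicopy families are active in early embryos, germ cells and stem cells and silent in fibroblasts.

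The annotation showed both kinds of sharing. Among 383 readings that join differently named genes, the genes overlapped or were nested in 232 and lay within 10 kb of each other in 92. Of 575 readings in named multicopy families, 201 joined genes 10 kb to 1 Mb apart, 138 joined genes over 1 Mb apart on 1 chromosome and 84 joined genes on different chromosomes. Promoters of RefSeq (mouse assembly GRCm38.p6) were aligned for 934 readings with at least 2 of them. The identical bases in the best local alignment were 98.0% of 250 upstream bases as the median over 28 Prame readings and 88.5% over 4 readings of the Zscan4 family. The median was 87.8% over 20 zinc finger readings, 8.8% over 51 core histone readings and 6.4% over 270 readings of different genes.

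The upstream sequences of Zscan4 copies show how alike the members of such a family are and how the annotated starts shift between copies. The 150 bases before each start are given 5′ to 3′ on the gene's own strand, with TATAAA and CCAAT in capitals. They lie at chr7:10905051-10905200 (minus strand), chr7:11005595-11005744 (plus), chr7:11166149-11166298 (minus) and chr7:11397765-11397914 (plus) in GRCm38.p6.
Zscan4b: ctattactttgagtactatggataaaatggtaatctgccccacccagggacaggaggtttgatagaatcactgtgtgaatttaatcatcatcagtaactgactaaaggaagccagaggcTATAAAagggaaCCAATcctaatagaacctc
Zscan4c: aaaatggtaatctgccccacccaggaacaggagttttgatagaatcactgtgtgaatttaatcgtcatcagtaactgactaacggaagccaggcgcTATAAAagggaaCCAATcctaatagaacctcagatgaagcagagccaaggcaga
Zscan4d: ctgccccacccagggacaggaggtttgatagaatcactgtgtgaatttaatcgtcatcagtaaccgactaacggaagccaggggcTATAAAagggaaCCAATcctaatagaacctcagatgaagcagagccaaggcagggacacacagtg
Zscan4f: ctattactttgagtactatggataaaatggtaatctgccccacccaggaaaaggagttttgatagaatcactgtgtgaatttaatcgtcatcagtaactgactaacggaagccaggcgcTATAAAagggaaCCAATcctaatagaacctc
The TATAAA began 31 bases before the annotated start of Zscan4b and Zscan4f, 54 before that of Zscan4c and 65 before that of Zscan4d. Over these 150 bases, Zscan4b and Zscan4f shared 95.3% of bases, while Zscan4d and Zscan4f shared 74.0%, the lowest of the 6 pairs. The percentage is of the full 150 bases, so bases without a partner because the starts are shifted count as not shared. A lower value can therefore reflect the shift rather than changed bases.

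Prame genes of chromosome 4 that share 3 readings show another such pair, at chr4:144357814-144357963 and chr4:143567317-143567466, both on the plus strand.
Pramel31: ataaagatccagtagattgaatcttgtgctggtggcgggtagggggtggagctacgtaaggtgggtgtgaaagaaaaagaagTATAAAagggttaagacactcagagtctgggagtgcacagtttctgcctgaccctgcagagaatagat
Pramel20: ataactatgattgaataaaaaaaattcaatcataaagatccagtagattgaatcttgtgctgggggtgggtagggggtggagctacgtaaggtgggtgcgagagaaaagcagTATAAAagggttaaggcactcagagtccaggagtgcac
By the same count over 150 bases, this pair shared 74.0% of bases. Its starts are shifted too, with TATAAA 68 bases before that of Pramel31 and 38 before that of Pramel20. Pramel16, which is on the same readings, shared 12% with each. Searched on both strands of 150 upstream bases, TATAAA was present in 8.08% and CCAAT in 25.3% of all 27025 promoters of the table. TATAAA was in 30.8% of 26 Prame promoters, 26.1% of 69 core histone promoters and 2.38% of 42 zinc finger promoters, and CCAAT in 34.6%, 62.3% and 73.8% in the same order.

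The microRNA cluster known as miR-290 to miR-295, typical of mouse embryonic stem cells, is read by 1 shared probe set. The 3′ arms listed for it by RefSeq are shown with the seed (bases 2 to 8) in capitals, since the seed decides which messages a microRNA can bind.
miR-291a-3p: aAAGUGCUuccacuuugugugc
miR-294-3p: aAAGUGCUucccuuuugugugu
miR-295-3p: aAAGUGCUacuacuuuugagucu
miR-291b-3p: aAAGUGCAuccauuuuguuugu
miR-293-3p: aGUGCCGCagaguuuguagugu
The first 3 share the seed AAGUGCU, miR-291b-3p has AAGUGCA and miR-293-3p has GUGCCGC. All lie on chromosome 7 of GRCm38.p6, for example miR-291a-3p at chr7:3218968-3218989 on the plus strand. RefSeq mature sequences were found for 76 of 100 microRNA genes on measured shared readings.

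The deposited values are RMA expression values taken as log2, from 2.98 to 13.7. A reading counted as measured where it reached the measuring floor on at least 1 array compared. The floor is the median of the probe sets with 1 symbol, 6.64 to 6.67 on the 4 arrays. By that rule 955 shared readings (1040 probe sets) were measured on at least 1 array, 679 of them on all 4, and 667 were not. The unmeasured ones included 65 of 73 readings of X- and Y-linked germline genes, 45 of 46 of vomeronasal receptors and all 19 of olfactory receptors, which sense odours. All 64 shared readings of genes on Y stayed below the floor, at 6.62 or lower. Of 29 Y-linked readings with 1 symbol, 4 were measured on a day 6 array, up to 8.17, and 0 on an iPSC array. A fold written as "at least" takes values under the floor as equal to it.

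As a check of the labels, Sumo2's own reading was 10.65 with Firefly knockdown; the culture labelled Sumo2 knockdown had 10.56, or 93.8% of that. Sumo2 also shares 3 readings with Mir684 genes, and these stood at 79.4% to 84.0%. Of 8 pluripotency markers with a probe set of their own, such as Nanog and Sox2, 8 were at or above the floor on each iPSC array, against 2 with Firefly and 4 with Sumo2 knockdown at day 6. Of 8 fibroblast markers, 8 were at or above it on both day 6 arrays and the 38 h array and 7 on the 10 day array. The fibroblast medians were 10.4, 9.80, 9.0 and 8.90 in the order Firefly, Sumo2, 38 h and 10 day. The pluripotency medians were 6.12, 6.82, 11.2 and 11.2 in that order, so the medians of both lists moved with the comparison of cell types. Not every member did: Col3a1 differed by 0.07 (log2). Between the day 6 cultures, Nanog already stood at 7.54 with Firefly and 9.87 with Sumo2 knockdown, while Tcl1 was at 5.58 and 5.56. Medians of 7 epithelial markers moved as well, at 7.46, 8.67, 10.1 and 9.43 in that order, already between the day 6 cultures. Of 4 neural markers 2, 1, 3 and 3 reached the floor, of 4 endothelial markers 1, 2, 2 and 2, and of 4 muscle markers 4, 4, 3 and 2. Of 5 blood and macrophage markers, 1 or 2 reached the floor on each array. The part of the cell mix in the results below was not tested.

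The main comparison set both iPSC arrays against both day 6 arrays. A reading was called where limma's Benjamini-Hochberg adjusted p over all 19629 measured readings was under 0.05 and the means were at least 2-fold apart. With 2 residual degrees of freedom, the spread includes the knockdown and the difference between lines, and neither pair of arrays holds replicates of a single condition. Among all readings, 16.4% were called higher in iPSC and 8.17% lower. Of 955 shared readings, 145 rose (15.2%) and 48 fell (5.03%), so the share that rose was near the background. The median difference was 0.17 for shared readings and 0.16 for all (log2). Of the 145 and 48, 118 and 30 were still 2-fold apart when counted from the floor.

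**Figure D1:**
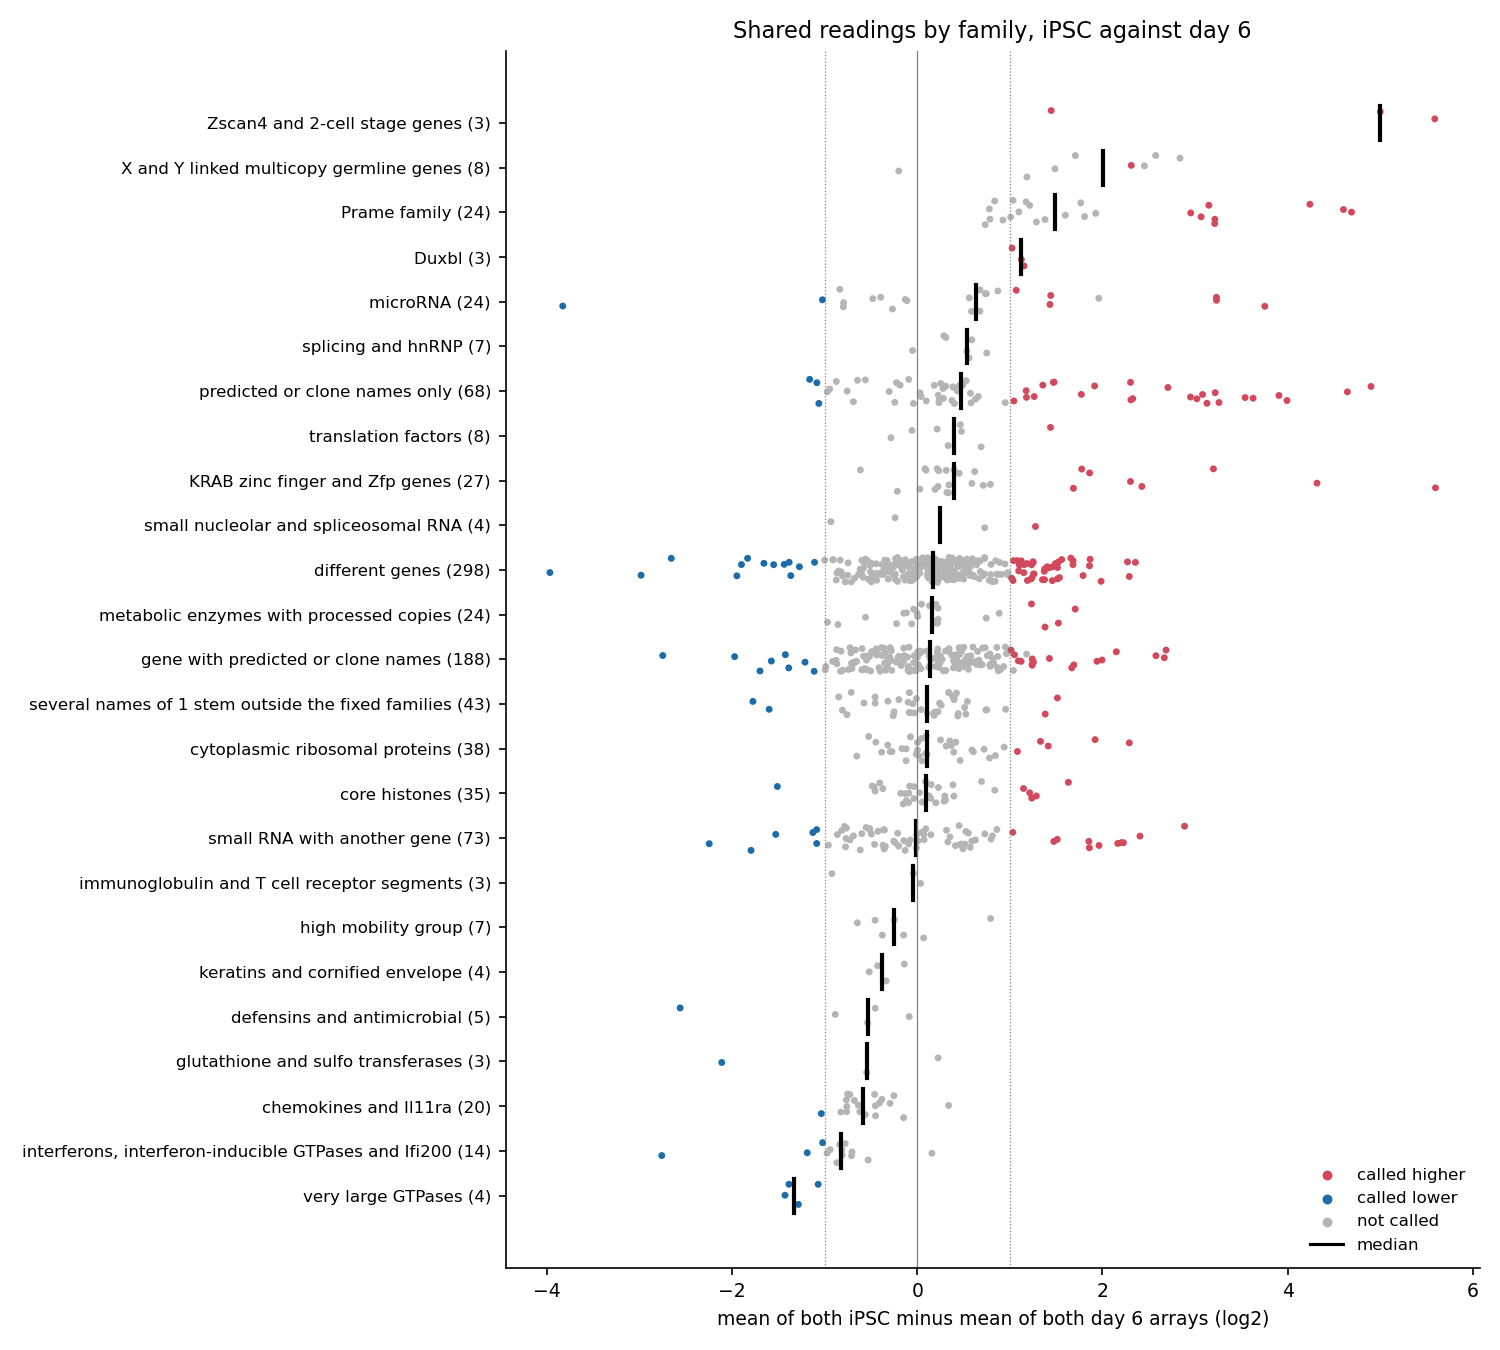
Difference between the mean of both iPSC arrays and the mean of both day 6 arrays (log2, x axis) for shared readings by family (rows, measured readings in parentheses), for families with at least 3; each point is 1 reading, the black bar is the median, and colours give the call. Zscan4 and 2-cell stage genes had the highest median, 5.0, with all 3 readings under the floor on both day 6 arrays, which fixes their direction. The very large GTPases had the lowest, -1.33, with all their iPSC values under the floor, which fixes their direction as well.

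Families of the early embryo were among those that rose. All 3 measured readings of Zscan4 and other 2-cell stage genes lay under the floor on both day 6 arrays. They were kept through the iPSC arrays alone, so their direction was fixed by that choice. Zscan4 genes, active in the 2-cell embryo and in short bursts in embryonic stem cells, were on 2 measured readings. The first read 5.26 and 5.43 at day 6 (Firefly, then Sumo2) and 10.88 and 10.99 in iPSC (38 h, then 10 day). Both iPSC arrays stood far above both day 6 arrays, by 5.59 (SE 0.16, adjusted p = 0.000221), which is at least 19.4-fold. The second, naming the same 6 genes, went from 5.31 and 5.19 to 10.22 and 10.29, at least 12.1-fold higher. The genes' own probe sets rose too but by unequal amounts, 1.17 for Zscan4a, 2.97 for Zscan4d, 4.66 for Zscan4c, 5.71 for Zscan4b and 6.84 for Zscan4e. Tdpoz5 and Tdpoz7, also of the early embryo, rose by 1.45 (5.43, 5.66, 6.65 and 7.33), and this call was lost without the Firefly or the 10 day array.

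Duxbl1, Duxbl2 and Duxbl3, relatives of the embryonic regulator Dux, shared 3 readings that rose by 1.02 to 1.15, or by at least 1.23-fold to 1.59-fold from the floor. They lay below the floor at day 6, at 5.77 to 6.23, and on the 10 day array above it, at 7.26 to 7.67. Being kept through the iPSC arrays alone fixes their direction. The 38 h values lay between these, and 2 of the 3 were above the floor. All 3 calls were lost when the Firefly, Sumo2 or 10 day array was left out.

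Prame genes code for leucine-rich repeat proteins found in germ cells, embryos and tumours, and in mouse they form large clusters. All 24 measured readings lay under the floor on both day 6 arrays and were kept through the iPSC arrays alone, so their direction was fixed by that choice. With that, 8 of the 24 rose (33.3%, beside 16.4% of all readings), and the median difference of 1.49 is given as a description. The 3 readings of the Pramel31, Pramel20 and Pramel16 group on chromosome 4 rose by 4.24 to 4.69. One went from 5.64 and 6.01 at day 6 to 9.93 and 10.19 in iPSC, at least 10.6-fold, with the iPSC lines close together. The own reading of Pramel20 rose by 2.41 (7.30, 7.43, 9.65 and 9.89).

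Another Prame group behaved otherwise. Its 5 readings, which name LOC100862180 and other chromosome 5 copies, rose by 2.95 to 3.21, and the 10 day line stood above the 38 h line on each. One of these read 5.95 and 5.80 at day 6, 8.27 at 38 h and 9.90 at 10 day. The linked reading of Gm6348 and Gm6346, counted with the predicted genes, rose by 3.26. The 10 readings of Pramel39 and its neighbours had 0 calls at a median of 1.20. Leaving out the 38 h array raised the Prame count from 8 to 24 of 24, and leaving out the Firefly array lowered it to 4.

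Zinc finger genes of the KRAB type encode DNA-binding repressors, many of them young and clustered. The family here holds KRAB zinc finger and other Zfp genes, taken by symbol alone. Of its 27 measured shared readings 8 rose (29.6%, beside 16.4% of all readings) and 0 fell, at a median of 0.40. Of the 27, 4 lay under the floor on both day 6 arrays, which fixes their direction. Among the family's 328 measured readings with 1 symbol, 46 rose and 18 fell, at a median of 0.26. The reading of Zfp600, Zfp979, Zfp980, Zfp981 and Rex2, a chromosome 4 cluster, rose from 7.89 and 8.12 to 12.23 and 12.42, by 4.32 (SE 0.16, adjusted p = 0.000221) or 19.9-fold. Here every gene named had an own reading that rose as well, from 2.55 for Zfp600 to 6.67 for Zfp981. Gm10324 and Zfp640 went from 4.96 and 4.79 to 10.23 and 10.72, at least 14.1-fold higher, and 3 own readings of Zfp640 rose by 5.62 to 6.34. All 4 readings of Zfp991, Zfp992, Zfp993 and Znf41-ps rose, by 1.69 to 3.20. By contrast, of 16 readings linked by shared symbols around Zfp966 to Zfp971 on chromosome 2, 3 rose, with a median of 0.34. Linked readings are not all among the 27, so the rises named here do not add up to the 8.

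Among readings with only predicted (Gm) or clone names, 25 of 68 rose (36.8%, beside 16.4% of all readings). In the same set 3 fell (4.41%, beside 8.17%), and the median was 0.47. Of the 68, 20 lay under the floor on both day 6 arrays, which fixes their direction. The rises include the linked sets below, whose readings name overlapping sets of genes. The 5 readings linked through Gm4301, Gm4312 and Gm4340 on chromosome 10 all rose, by 1.36 to 4.90. One, shared by 4 probe sets, went from 6.76 and 6.85 to 11.52 and 11.37, which is 25-fold and the largest rise from the floor among shared readings. All 7 readings linked through Gm428 on chromosome 4 rose by 1.92 to 3.22, and all 4 of Gm4567, Gm10662 and Gm5891 on chromosome 7 by 3.08 to 3.63. Every reading of both sets lay under the floor on both day 6 arrays, which fixes their direction. Gm4027, BB287469, Gm5039 and Gm2022 went from 5.74 and 5.72 to 9.66 and 9.79, at least 8.37-fold higher. What these predicted genes do is not given here.

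MicroRNA readings moved both ways: of 24 measured, 6 rose (25%, beside 16.4% of all readings) and 2 fell (8.33%, beside 8.17%). Of the 24, 9 lay under the floor on both day 6 arrays, which fixes their direction. The miR-291a to miR-295 cluster printed above read 5.32 and 5.79 at day 6 and 8.50 and 9.07 in iPSC, higher by 3.23 (SE 0.27, adjusted p = 0.000997), at least 4.37-fold. The reading of Mir17hg with Mir19b-1 and Mir92-1, part of a cluster that promotes cell division, rose by 1.43 (5.73, 5.65, 7.10 and 7.15). Mir669a and Mir669p, of a repeated cluster in an intron of Sfmbt2, rose on 2 readings by 3.23 and 3.75, most of it in the 10 day line. Mir466d and Mir466n went the other way, from 10.18 and 10.34 to 6.58 and 6.29, a fall of at least 12.1-fold, the largest among shared readings when counted from the floor. Mir466n had an own reading of 5.30, 5.33, 4.80 and 6.78 that was not called. Of the 6 rises, 2 were called without the Firefly array, 2 without the Sumo2 array and 3 without the 10 day array.

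The calls in some immune families were falls. Gvin1 and its copies code for very large GTPases that interferon turns on. All 4 of their readings fell (100%, beside 8.17% of all readings), by 1.07 to 1.43. They went from 6.48 to 7.59 at day 6 to 5.44 to 6.05 in iPSC, where all lay under the floor. Being kept through the day 6 arrays alone fixes their direction. Counted from the floor they were at least 1.18-fold to 1.62-fold lower, so none was 2-fold lower by values above it. Without the Firefly array 0 of these 4 were called, and without the 10 day array 3. Among 14 readings of interferons, interferon-inducible GTPases and the Ifi200 family, 3 fell (21.4%, beside 8.17% of all readings) and 0 rose. The median was -0.82. Of the 14, 6 reached the floor on an iPSC array. The rest were kept through the day 6 arrays alone, which largely fixes their direction. Many of the 14 name Ifnz copies: 6 carry 1 set of symbols and 2 carry another. Among the family's 26 measured readings with 1 symbol, 3 rose and 6 fell. Ifi211 and Ifi204, which sense DNA, went from 9.97 and 9.12 to 7.17 and 6.40, so that it fell by 2.76 (SE 0.37, adjusted p = 0.00317). Ifna5 and Ifna6 fell by 1.19, from 9.08 and 8.96 to 7.95 and 7.72. An Ifnz reading fell by 1.02, to a value under the floor on the 10 day array.

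Chemokine readings (Ccl19, Ccl21 and Ccl27 copies, read together with Il11ra genes) had a median of -0.59, but 1 of 20 fell (5%, under the background), that of Ccl21c and others, by 1.04. It was not called without the Firefly, the Sumo2 or the 10 day array. Of the 20, 12 reached the floor on an iPSC array. The rest were kept through the day 6 arrays alone, which largely fixes their direction. Immunoglobulin and T cell receptor segments had 0 calls among 3 measured readings. Rnase4 and Ang, secreted ribonucleases that overlap, fell by 2.56 (9.65, 9.30, 7.09 and 6.74). Gstm5, a glutathione transferase, with 4933431E20Rik fell by 2.11 (9.63, 9.31, 7.32 and 7.40).

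Housekeeping families with processed copies mostly gave small differences. Of 38 readings of ribosomal proteins 5 rose (13.2%) and 0 fell, and of 24 of metabolic enzymes 4 rose (16.7%) and 0 fell, shares near the background of rises, with medians of 0.10 and 0.16. High mobility group readings gave 0 calls of 7 and splicing factors 0 of 7. For Gapdh, a glycolysis enzyme, 6 readings with Gm12070 differed by 0.13 to 0.22. A seventh, with Gapdh-ps15, rose by 1.38, from 5.68 and 5.90 to 6.86 and 7.48. Rpl21 with 5 predicted copies rose by 2.29 (5.41, 5.12, 7.59 and 7.52), while 3 own readings of Rpl21 differed by 0.01, 0.06 and 1.22. Aldoa with its testis copy Aldoart1 rose by 1.71 (6.78, 7.19, 8.65 and 8.73).

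Core histone genes, which supply new nucleosomes when cells divide, gave 5 rises and 1 fall among 35 readings, at a median of 0.09. The shares were 14.3% and 2.86%, beside 16.4% and 8.17% of all readings. The H3c readings shared by 8 genes rose on 3 of 4, by 1.24 to 1.63. The H2bc4, H2bc6 and H2bc8 genes gave opposite calls on different readings: one fell from 11.53 and 11.16 to 10.01 and 9.66, by 1.51, while another rose from 6.80 and 7.43 to 8.42 and 8.24, by 1.21. Of the 5 rises, 3 were called without the Firefly array and 3 without the Sumo2 array.

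**Figure D2:**
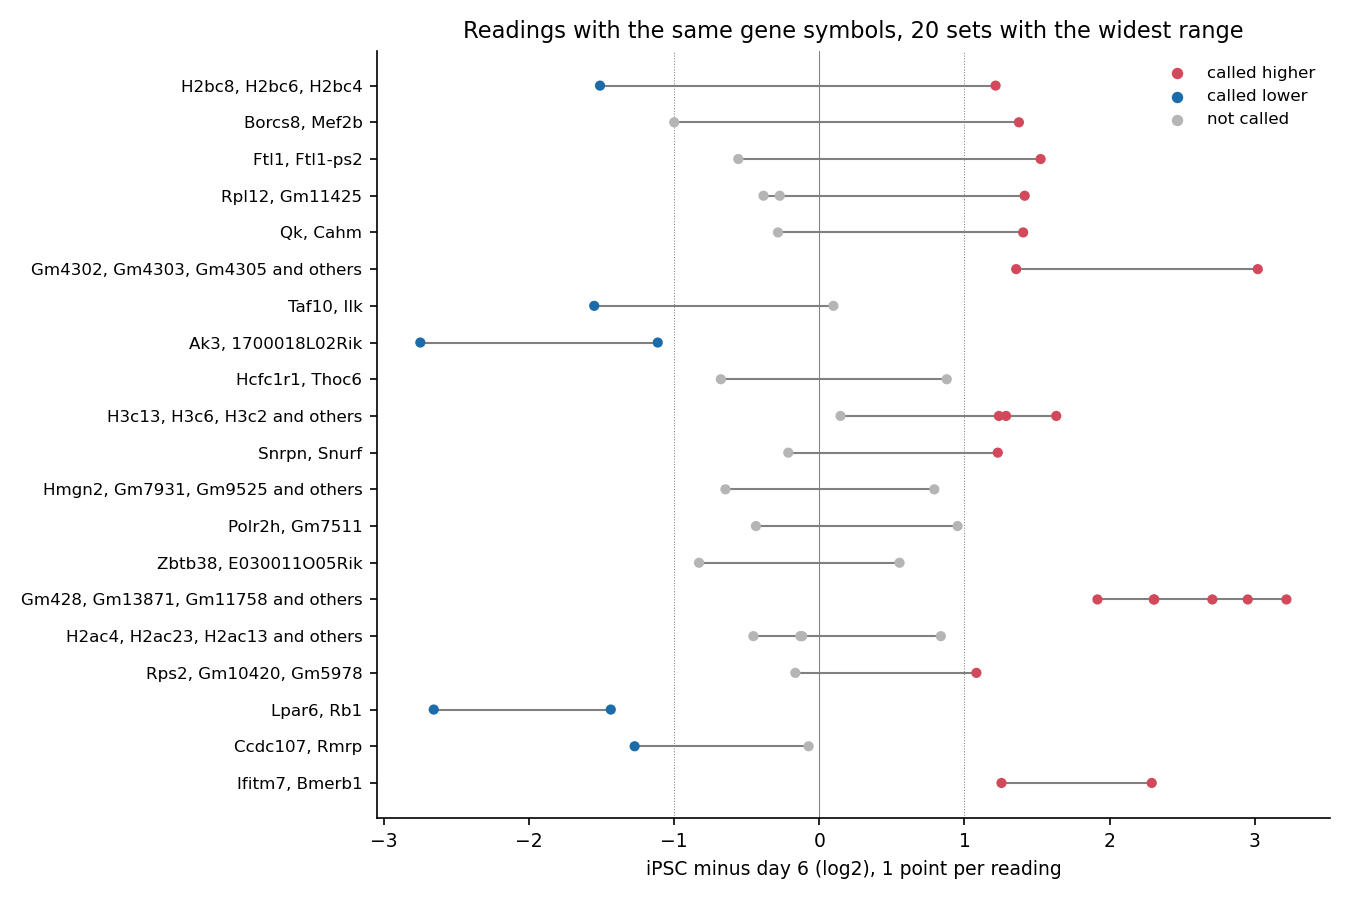
Difference between iPSC and day 6 (log2, x axis) of readings that carry exactly the same gene symbols, for the 20 sets of symbols with the widest range; each point is 1 reading and colours give the call. The H2bc4, H2bc6 and H2bc8 set spans -1.51 to 1.21 and is the set with calls in both directions.

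Such disagreement could be counted. There were 128 sets of symbols with over 1 measured reading, 314 readings in all, and the median range of the difference within a set was 0.35. In 14 sets every reading rose, in 5 every reading fell, in 90 none was called, in 18 some were called and some not, and 1 had calls both ways. In 20 sets the range was 1 or more. For Rpl12 with Gm11425, 2 readings differed by -0.38 and -0.27 and the other rose by 1.41 (8.29, 8.24, 9.68 and 9.68). For the iron storage gene Ftl1 with Ftl1-ps2, one reading rose by 1.52 and the other differed by -0.56.

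Where genes on a shared reading also had a reading of their own, the pair could be set side by side, both from the same arrays. There were 628 such pairs, over 415 genes and 456 shared readings. In 52 pairs both were called the same way, in 7 in opposite ways, in 69 the shared reading alone, in 85 the own reading alone and in 415 neither. The median absolute gap between the differences was 0.57, and 173 pairs were 1 or more apart.

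**Figure D3:**
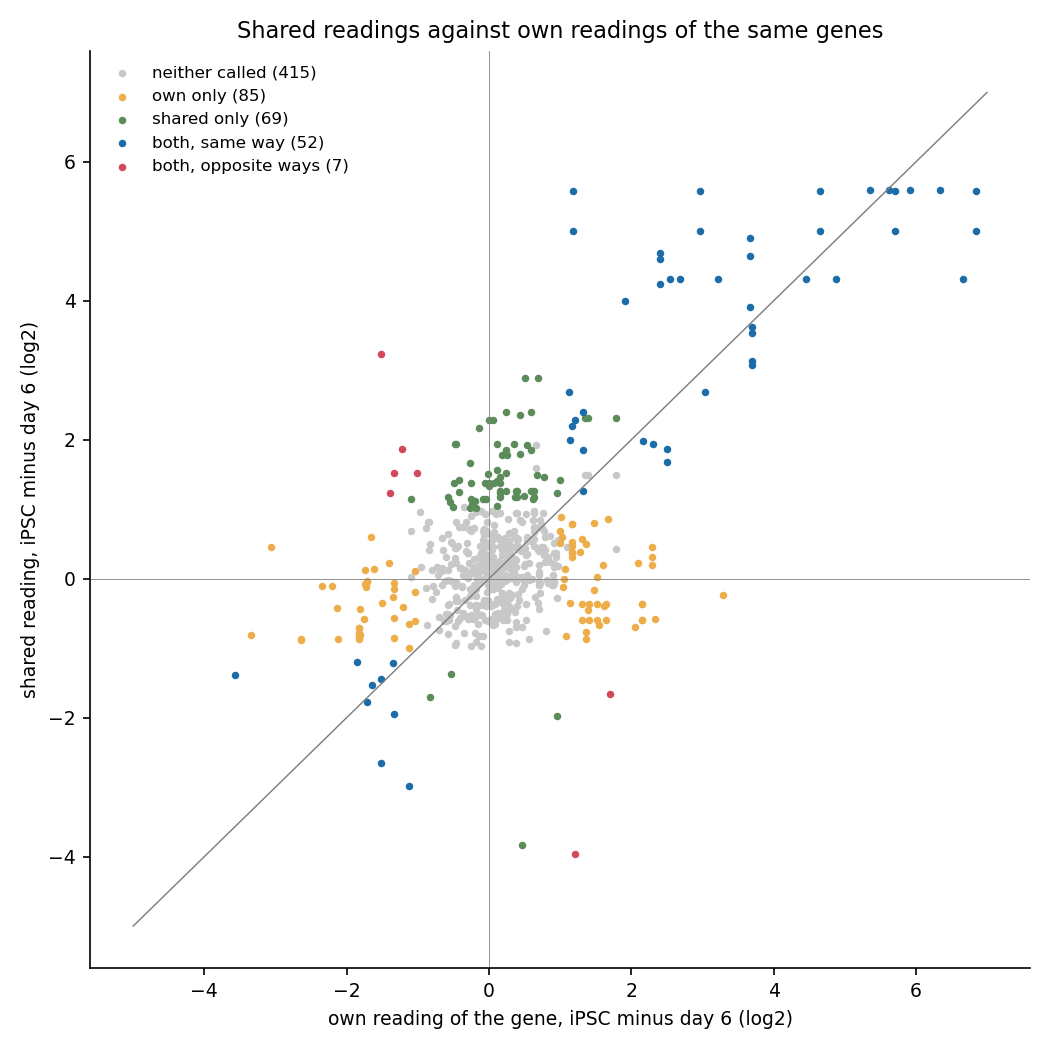
Difference between iPSC and day 6 (log2) of shared readings (y axis) against that of an own reading of a gene they name (x axis), for 628 pairs; the diagonal marks equal differences and colours give which of the pair was called. The 7 pairs called in opposite ways lie at the upper left and the lower right.

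Of the 7 opposite pairs, 4 come from overlapping genes, 1 from neighbours (Srpx and Rpgr) and 2 from copies. Krr1, needed for making ribosomes, shares a reading with the overlapping Glipr1 that fell by 3.97 (9.66, 9.42, 5.48 and 5.67), while Krr1's own reading rose by 1.21 (8.35, 8.81, 9.94 and 9.63). The reading of Srpx and Rpgr fell by 1.65, whereas that of Rpgr, a protein of the cilium, rose by 1.71. Readings of Plscr3 with Tnk1, Bmp2k with Paqr3 and Acp2 with Ddb2 rose by 1.87, 1.24 and 1.52. The own readings of Plscr3, Bmp2k and Acp2 fell by 1.22, 1.39 and 1.01. The copies were Ftl1 with Ftl1-ps2, which rose by 1.52 beside -1.33 for Ftl1-ps2, and Mir669a, which rose by 3.23 while the own reading of Mir669a-3 fell by 1.51 (9.20, 8.63, 7.19 and 7.62).

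Among 298 measured readings of differently named genes, 43 rose (14.4%) and 13 fell (4.36%), both under the background. Lpar6, a receptor gene nested in the cell cycle gene Rb1, had 2 readings with it that fell, one of which fell by 2.65 (10.25, 10.42, 8.27 and 7.09), and Rb1's own reading fell by 1.51. Hoxa7 with the noncoding Mira fell by 2.98 (9.44, 9.03, 6.37 and 6.14), and Prnp, the prion protein gene, with Prnd by 1.83. Ak3, a mitochondrial adenylate kinase, with 1700018L02Rik fell by 2.75 (11.44, 11.38, 9.0 and 8.32). Gp1bb with its neighbour Septin5 fell by 1.90, and Fam177a with Fam177a2 and Srp54c fell by 1.77. Ermard with 9030025P20Rik fell by 1.97 on 1 reading, while a reading that also names Gm3435 rose by 1.24. Sycp3, a protein of meiotic chromosomes, with Chpt1 rose by 2.36 (7.04, 6.54, 8.66 and 9.63), while Chpt1's own reading was not called. Tsix and Xist, overlapping RNAs of X inactivation, rose by 1.99 (6.16, 5.15, 7.50 and 7.79). Small RNA genes read with another gene, mostly a host, gave 11 rises (15.1%) and 6 falls (8.22%) among 73 readings, near the background, led by Snord4a with Tlcd1, up 2.89, and Mir5101 with Syne2, down 2.25.

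Between the day 6 cultures, with 1 array each, there was no replicate check and no test, and a size rule of 2-fold was used. Among all 17287 readings measured there, 1.15% were 2-fold higher and 0.683% 2-fold lower with Sumo2 knockdown. Of 836 shared readings, 2 were higher (0.239%) and 5 lower (0.598%). Peg3, an imprinted gene, with Peg3os stood at 7.97 against 6.75, 2.32-fold higher. Zfp433 with Gm10778 stood at 6.76 against 5.71, a difference of 1.05 of which 1.09-fold lay above the floor. The lower ones included Gm5796 with Gm10340 (6.76 against 7.96). Srpx with Rpgr (6.54 against 7.74), Gvin1 with Gm4070 (6.5 against 7.54), Ptges3l with Aarsd1 (6.35 against 7.44) and Mir485 with Mirg (6.12 against 7.21) lay under the floor with Sumo2 knockdown. Counted from the floor, 1 of the 2 and 2 of the 5 were 2-fold apart.

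The iPSC lines differed more, again with 1 array each and no test. Among all 17881 readings, 2.79% were 2-fold higher at 10 day and 1.2% lower, and of 870 shared readings 50 were higher (5.75%) and 7 lower (0.805%). Of the 50, 21 were Prame readings and 7 X-linked germline readings. Counted from the floor, 42 of the 50 and 6 of the 7 were 2-fold apart. The day 6 arrays are shown beside the lines below because they tell which line stood near the day 6 cultures. Those cultures had already been given doxycycline, and the series has no array of cells before it. Where values lie under the floor, being near means only that neither was measured.

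Xlr genes, relatives of a meiotic chromosome protein, are X-linked clusters expressed in germ cells. The 3 Xlr5 readings differed by 4.51 to 5.52, the largest differences between the lines. The reading of Xlr5b, Xlr5a and Xlr5c was 5.24 and 5.12 at day 6, 4.99 at 38 h and 10.52 at 10 day, at least 14.5-fold higher in the 10 day line. The 38 h line lay beside the day 6 cultures and the 10 day line alone was above the floor. Of the 3 Xlr4 readings, 2 were at 8.90 and 7.0 on the 10 day array, higher by 3.68 and 3.38, and the other, naming Xlr4c and Xlr4d-ps, by 0.31. Fthl17 genes, X-linked ferritin-like copies, read 5.90, 6.09, 7.21 and 9.40 on one reading and 5.85, 6.13, 6.40 and 8.55 on the other.

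The 8 measured readings of X- and Y-linked germline families are a remainder of 73, and 6 of them reached the floor on the 10 day array alone, which fixes their direction. Of the 8, 7 were higher at 10 day, and the median of 3.53 is a description. In the comparison of iPSC with day 6, 1 of these 8 rose, 7 did when the 38 h array was left out, and 0 without either day 6 array. Over the X chromosome, 13 of 37 measured shared readings were 2-fold higher at 10 day and 0 lower. Among X-linked readings with 1 symbol these were 78 and 2 of 403, and among shared readings of genes on 1 autosome 31 and 6 of 610.

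The Prame readings split between the lines. Of 24, 14 reached the floor on the 10 day array alone, which fixes their direction. With these, 21 were 2-fold higher at 10 day, at a median of 1.71, and the other 3 were the Pramel31 group, higher by 0.17 to 0.27. The 10 Pramel39 readings were all higher at 10 day, and one read 5.45, 5.53, 6.26 and 8.33. The X-linked Pramel3 group read 4.55, 4.95, 4.76 and 8.59, at least 3.82-fold higher, from 2 identical probe sets. The 4 Gm4567 readings on chromosome 7 followed the same order on the arrays, for example 5.14, 5.24, 7.32 and 9.32.

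**Figure D4:**
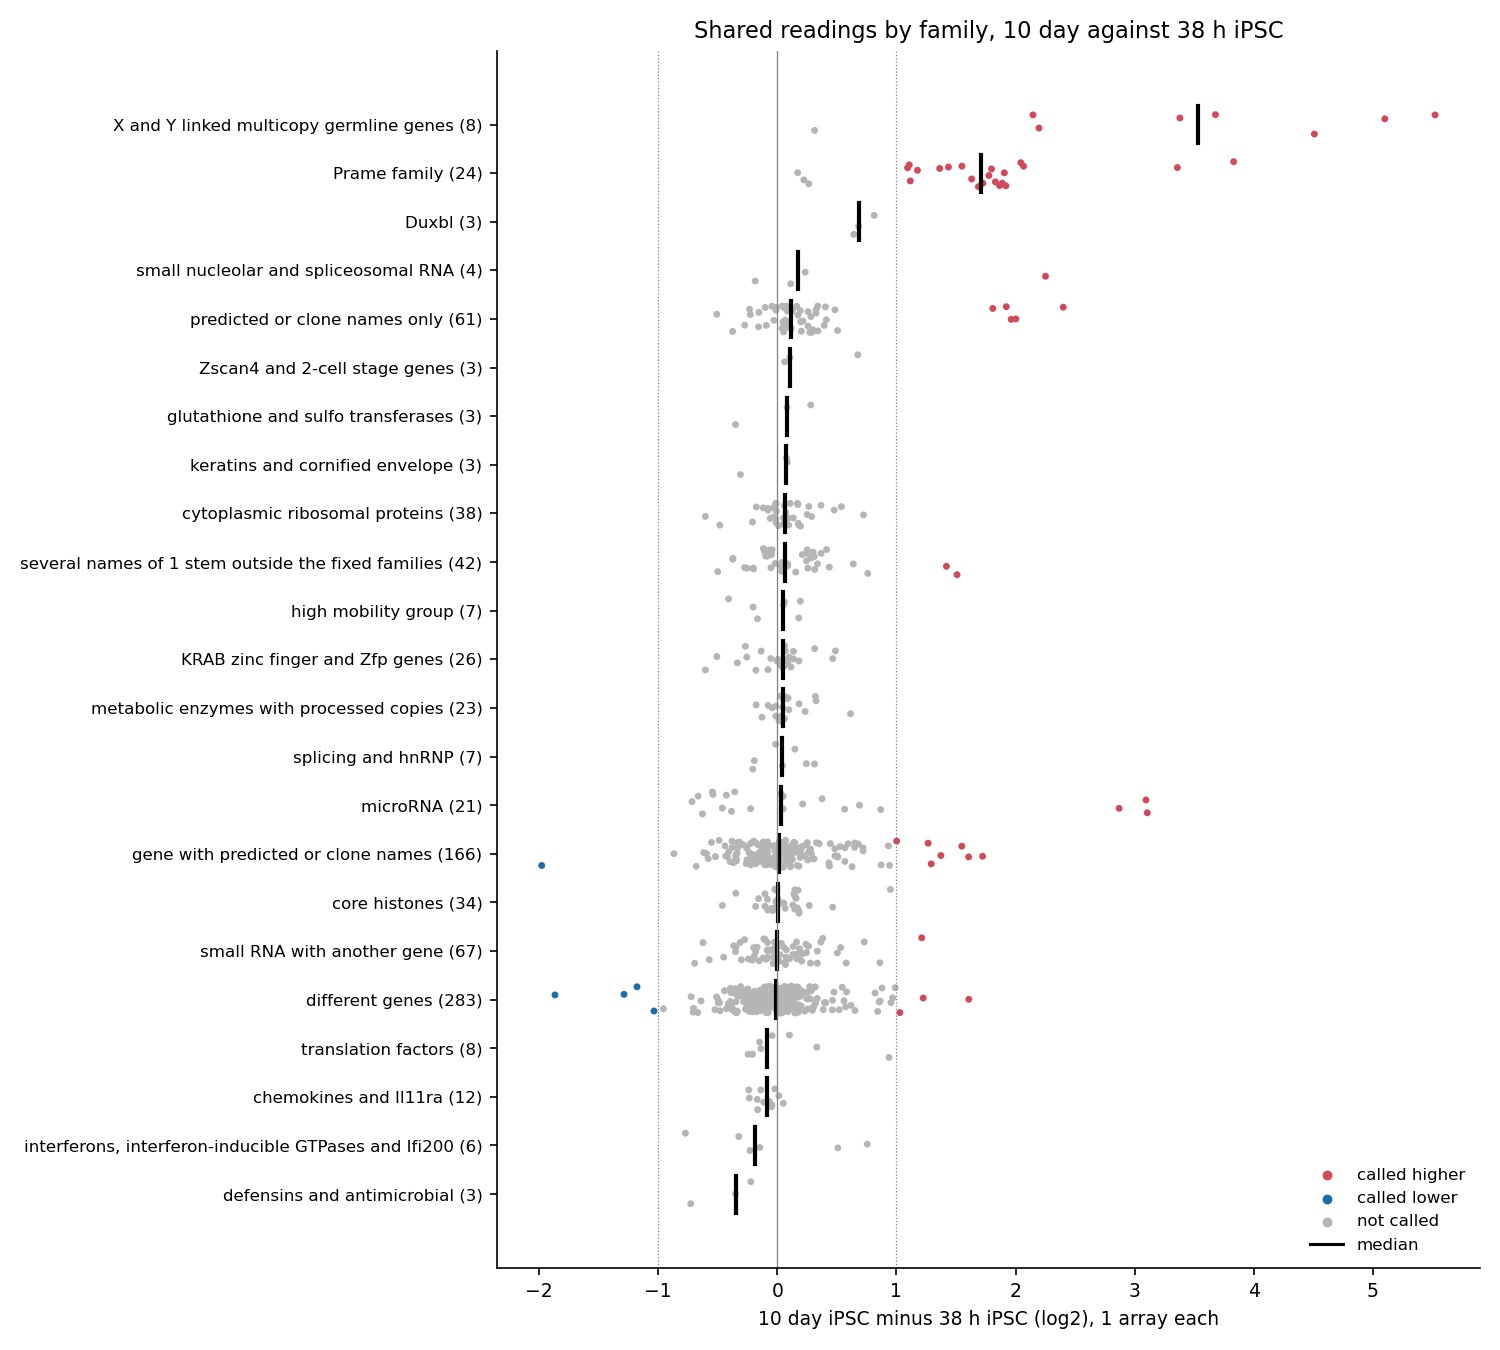
Difference between the 10 day and the 38 h iPSC array (log2, x axis, 1 array each) for shared readings by family (rows, measured readings in parentheses), for families with at least 3; each point is 1 reading, the black bar is the median, and red and blue mark readings at least 2-fold apart. X- and Y-linked germline genes had a median of 3.53 and the Prame family 1.71, and the medians of the other families lay within 0.7 of 0.

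Small RNA genes gave further differences between the lines. Mir669a on its 12 identical probe sets read 4.35, 4.75, 6.22 and 9.33, at least 6.38-fold higher at 10 day, and the Mir669a and Mir669p reading at least 6.21-fold. Snord116l copies, of the small nucleolar RNA cluster at the imprinted Snrpn locus, read 9.31, 9.22, 8.87 and 11.12, so that the 10 day line alone stood apart, 4.76-fold above the 38 h line. AA467197 with Mir147 read 5.05, 5.07, 5.47 and 8.57. Zscan4 readings differed by 0.06 and 0.11 between the lines.

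The 7 readings lower at 10 day shared no family. DQ267100 with Rian, a noncoding RNA of an imprinted cluster, read 7.85, 7.62, 9.76 and 7.78, 3.94-fold lower at 10 day, so that the 38 h line stood alone. Neurod1, a regulator of neurons and endocrine cells, with Cerkl read 6.77, 7.27, 8.51 and 6.65. Trf, the blood iron carrier transferrin, with Srprb was 2.44-fold lower, Raet1e with Raet1d at least 2.28-fold, Lpar6 with Rb1 2.26-fold and the reading of Cpt1b, Chkb and Gm44502 2.05-fold. H2-T22 with H2-T9, of the histocompatibility complex, read 6.75 at 38 h and 5.35 at 10 day, of which 1.06-fold lay above the floor.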

How the data were processed

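Total RNA of 4 mouse cultures was measured on 1 array each. The deposited values are log2 expression per probe set, made by the authors with RMA in Expression Console of Affymetrix (the submitters' processing notes name both, with no versions). No log base is stated with the values; base 2, the scale RMA writes, was taken. RMA equalizes the arrays' distributions and shrinks folds of dim and very bright probe sets. No label says whether the cultures were independent, so p-values measure the spread between these arrays, and their number limits the precision.

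Probe sets with identical values on all arrays were collapsed. Readings were fitted with limma 3.58.1 in R 4.3.3 (lmFit, eBayes with an intensity trend, tested on simulated data) and adjusted by Benjamini-Hochberg over all measured readings. Families were assigned from symbols, where most of the names that are not predicted or clone names match. Readings were named by rank, per comparison the 12 highest and 12 lowest called ones counted from the floor; with these come Sumo2 and up to 4 members of families with 3 or more measured readings; single readings beside these were chosen after their values were seen. Members and lists were chosen with earlier results of these data known, and family patterns were refined after the symbols were seen. Symbols were placed with a RefSeq table of GRCm38.p6. No array coordinates are printed, since no source used here names the build of the array. Promoters were aligned with Biopython 1.88 (local alignment). Settings tried were scaling, floor, fold threshold, trend, collapsing, the symbol rule and leaving out each array.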

Additional observations from a re-analysis of the deposited data

How the results depend on the processing

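No paired analysis was possible because each group has 1 array and the labels carry no replicate numbers. In iPSC against day 6, 145 shared readings rose and 48 fell. Leaving out 1 array in turn, where the lone array is assumed to vary like the other pair, gave 108 to 175 and 34 to 53. Of the 145, 102 were still called without the Firefly array, 116 without Sumo2, 129 without 38 h and 124 without 10 day, and 0 called readings reversed. Cyclic loess between arrays gave 131 and 55 and moved the median of all readings from 0.16 to 0.03. The counts were 85 and 23 with the floor at the 75th percentile, 72 and 18 at 3-fold, and 87 and 30 with only readings naming 2 or more genes that are not predicted or clone names. At 1.5-fold 125 fell, and in a fit on values raised to the floor 30 fell. Between the day 6 cultures, 2 higher and 5 lower became 0 and 0 with the higher floor, 27 and 24 at 1.5-fold, 0 and 0 at 3-fold, 1 and 2 from the floor, and 1 and 3 with the stricter naming; without a floor 4 were higher. Between the iPSC lines, 50 higher and 7 lower became 22 and 1 with the higher floor, 86 and 26 at 1.5-fold and 33 and 2 at 3-fold. There 88 were higher when every probe set was counted, and 27 with the stricter naming. Fewer readings enter under the higher floor and the stricter naming; the cause was not tested otherwise. For the 24 readings named by rank in iPSC against day 6, direction and call held under cyclic loess, no trend, the floored fit and each array left out.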

Other observations

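Several shared readings cover imprinted genes, which are expressed from 1 parental copy; they were picked after their values were seen, and no count is drawn from them. H19 with Mir675 read 11.5 and 11.5 at day 6, 10.1 at 38 h and 11.3 at 10 day, so the 38 h line stood lowest. DQ267100 with Rian, on the contrary, was highest at 38 h, at 9.76. Snrpn with Snurf rose in iPSC on 1 reading by 1.23 and differed by -0.21 on another. Rtl8a with Rtl8b fell by 1.6 (log2). Peg3 with Peg3os read 6.75, 7.97, 8.03 and 7.54, so the Firefly array stood lowest. With 1 array per condition none of the differences between single arrays has a replicate check.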
